A study of Mus musculus with 40 samples.

Results

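The fibroblast growth factor (FGF) genes described here are 5 ligand genes, Fgf3, Fgf4, Fgf8, Fgf15 and Fgf17, and the 4 receptor genes Fgfr1, Fgfr2, Fgfr3 and Fgfr4. They were taken by symbol from tables of mouse embryonic stem cell RNA, and all 9 were found among the 23228 symbols that every table lists. The cells were either wild type or homozygous for GLP 3A, a mutation of Ehmt1, which encodes the histone H3 lysine 9 methyltransferase GLP. Each genotype was measured without treatment and with all-trans retinoic acid (RA) at 1 uM, a signal that makes stem cells differentiate, with 2 RNA libraries in each of the 4 groups. All groups have the strain background C57BL/6 (mixed) and passed from feeders with serum and LIF into feeder-free 2i medium before use. LIF, a factor that maintains self-renewal, was removed as RA was added, so the 2 effects cannot be told apart, and "with RA" means both. The sources used here do not give the length of RA treatment or the number of cell lines or clones behind each genotype. The labels name no separate cultures for the 2 libraries of a group, and the p-values therefore measure no more than the spread between the libraries at hand.

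FGF ligands are secreted and act on receptor tyrosine kinases at the cell surface, together with heparan sulfate chains. Receptor activation feeds the Ras, Raf, MEK and ERK relay, which induces transcription factors such as Etv4 and Etv5 and inhibitors such as the Sprouty and Dusp proteins that dampen the same relay. In embryonic stem cells FGF4 is the best known ligand, produced by the cells themselves, and FGF signalling through ERK prepares them to leave the undifferentiated state. The 2i medium holds an inhibitor of MEK and one of GSK3; the labels do not say whether these were present during RA treatment.

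The values are RPKM, which scale reads to library depth and gene length, for 23234 symbols in each library. Read counts are not in the tables, so the number of reads behind a value is unknown. Depth was judged from the steps between low values and set against replicate 1 of the untreated wild type; it was 0.96 to 1.24 in the other replicate 1 libraries and 0.44 to 0.57 in all replicate 2 libraries. A low value therefore rests on fewer reads in a replicate 2 library. Ehmt1, the mutated gene, measured 18.4 and 17.6 RPKM in untreated wild-type cells and 24.4 and 23.5 with RA, against 14.1 and 14.3 in untreated GLP 3A cells and 12.96 and 13.9 with RA. The tables hold no sequence, so the mutation could not be seen in them. The 7 pluripotency markers summed to 2494 to 2915 RPKM in the untreated libraries and 60.5 to 91.7 with RA. Of the marker lists for other cell types, the 8 primitive endoderm genes summed to 7.69 to 10.8 untreated and 70.2 to 398 with RA, with Sox17 at 0 in 1 untreated wild-type library. The 8 fibroblast genes summed to 4.51 to 5.30 untreated and 77.2 to 105.8 with RA, with S100a4 at 0 in both untreated wild-type libraries; Pdgfra is in both lists. The 6 neural genes in the tables, of 7 listed, summed to 29.4 to 51.0 untreated and 61.5 to 81.6 with RA, with Neurog2 at 0 in 1 untreated GLP 3A library. The 6 mesoderm genes summed to 12.1 to 14.9 untreated and 3.81 to 5.04 with RA, with Mesp1 at 0 in 4 of the 8 libraries. Some genes went against the sum of their list in both genotypes. The neural gene Tubb3 fell with RA from a mean of 24.1 to 11.4 RPKM in wild type and from 42.6 to 14.3 in GLP 3A. Neurod1 of the neural list and Thy1 of the fibroblast list also fell, whereas Kdr of the mesoderm list rose. In a bulk sample, a change in the share of cells that express a gene and a change in RNA per cell cannot be told apart.

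The promoters of Fgf4 and Fgfr2 are shown because these genes had the largest fall and the largest rise with RA among the members. The promoter of Fgf3 belongs to the nearest neighbour of Fgf4, and that of Fgfr3 to a receptor gene that rose with Fgfr2. Each run is the 250 bases before the gene's start on the gene's own strand, read 5′ to 3′, from the RefSeq promoter table of build GRCm38.p6. Fgf4 lies at chr7:144861136-144861385 on the plus strand, Fgf3 at chr7:144838362-144838611 on the plus strand, Fgfr2 at chr7:130266809-130267058 on the minus strand and the first of 2 Fgfr3 windows at chr5:33721474-33721723 on the plus strand. Capitals mark matches to GGGCGG, the GC box, on either strand, or to CAGGTG, an E box.
Fgf4: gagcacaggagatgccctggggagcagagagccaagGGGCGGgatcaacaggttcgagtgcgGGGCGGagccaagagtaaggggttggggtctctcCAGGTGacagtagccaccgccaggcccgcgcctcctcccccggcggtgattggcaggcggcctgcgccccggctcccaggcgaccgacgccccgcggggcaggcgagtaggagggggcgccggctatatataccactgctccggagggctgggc
Fgf3: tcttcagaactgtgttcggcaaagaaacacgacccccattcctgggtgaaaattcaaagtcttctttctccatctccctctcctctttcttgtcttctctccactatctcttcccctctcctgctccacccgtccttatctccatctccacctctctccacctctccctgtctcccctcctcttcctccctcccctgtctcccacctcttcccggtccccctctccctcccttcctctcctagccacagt
Fgfr2: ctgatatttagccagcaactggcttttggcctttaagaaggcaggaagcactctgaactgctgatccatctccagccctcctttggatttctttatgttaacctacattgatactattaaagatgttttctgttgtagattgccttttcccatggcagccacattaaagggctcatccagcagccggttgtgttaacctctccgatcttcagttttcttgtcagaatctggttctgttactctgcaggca
Fgfr3: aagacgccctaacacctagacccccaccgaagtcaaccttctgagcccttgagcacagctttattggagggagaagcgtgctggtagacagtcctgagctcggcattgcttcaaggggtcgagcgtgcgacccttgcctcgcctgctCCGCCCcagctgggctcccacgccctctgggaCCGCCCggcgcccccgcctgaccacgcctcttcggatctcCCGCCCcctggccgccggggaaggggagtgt

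The window of Fgf4 was 71.2% G and C with 21 CpG dinucleotides, and that of Fgfr3 66.8% with 19. Fgf3 had 55.2% and 4 CpG, and Fgfr2 44% and 2. The median over all 32851 windows of the table was 52.4% and 6 CpG. The window of Fgf4 was thus CpG-rich and that of Fgfr2 CpG-poor against the table. Fgf4 held 2 GC boxes, at 214 to 209 and 188 to 183 bases before the start, and an E box at 154 to 149. The first Fgfr3 window held 3 GC boxes on the other strand, at 103 to 98, 71 to 66 and 31 to 26 bases before the start. The second Fgfr3 window (72.8% G and C, 24 CpG) and the Fgfr4 window (64.0%, 15 CpG) held 2 GC boxes each, overlapping each other in Fgfr3. GC boxes occur in 32.7% of all windows and CAGGTG in 17.2%. The octamer ATGCAAAT (1.6% of all windows), the retinoid receptor half-site AGGTCA (14%), the Sox motif ACAATG (10.7%) and TATAAA (12.4%) were searched on both strands and did not occur in the 6 windows of the 5 members matched. The DR5 element, a direct repeat that contains the half-site at both ends, occurs in 3 of the 32851 windows and in no member window. These are exact matches of letters in a short window and say nothing of binding. Variants were not counted, such as the run tatatata near the end of the Fgf4 window beside the TATA box sequence TATAAA. The table has no entry for Fgf8, Fgf15, Fgf17 and Fgfr1.

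In untreated wild-type cells the ligand gene Fgf4 stood highest of the 9, followed by Fgf17 and Fgfr1, with no overlap between neighbours down to Fgf15. Fgf3 and Fgfr3 overlapped below 1.01 RPKM, as did Fgfr2 with Fgfr4 and Fgfr4 with Fgf8. With RA the order turned over: Fgfr1, Fgfr2 and Fgfr3 were the highest 3 in both genotypes, each clear of the next. In wild type with RA, Fgf4 was the lowest member. In GLP 3A with RA, Fgf15 was the lowest. Fgfr4 never reached 1 RPKM in more than 1 library and was not tested, so 8 of the 9 members entered the tests. Of these, Fgf4 reached 1 RPKM only in untreated libraries and Fgfr3 only in RA libraries. Fgf8 did so only in the untreated GLP 3A libraries and Fgf15 only in wild-type libraries. The filter thus let each of them in through the groups where it was high.

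**Figure D1:**
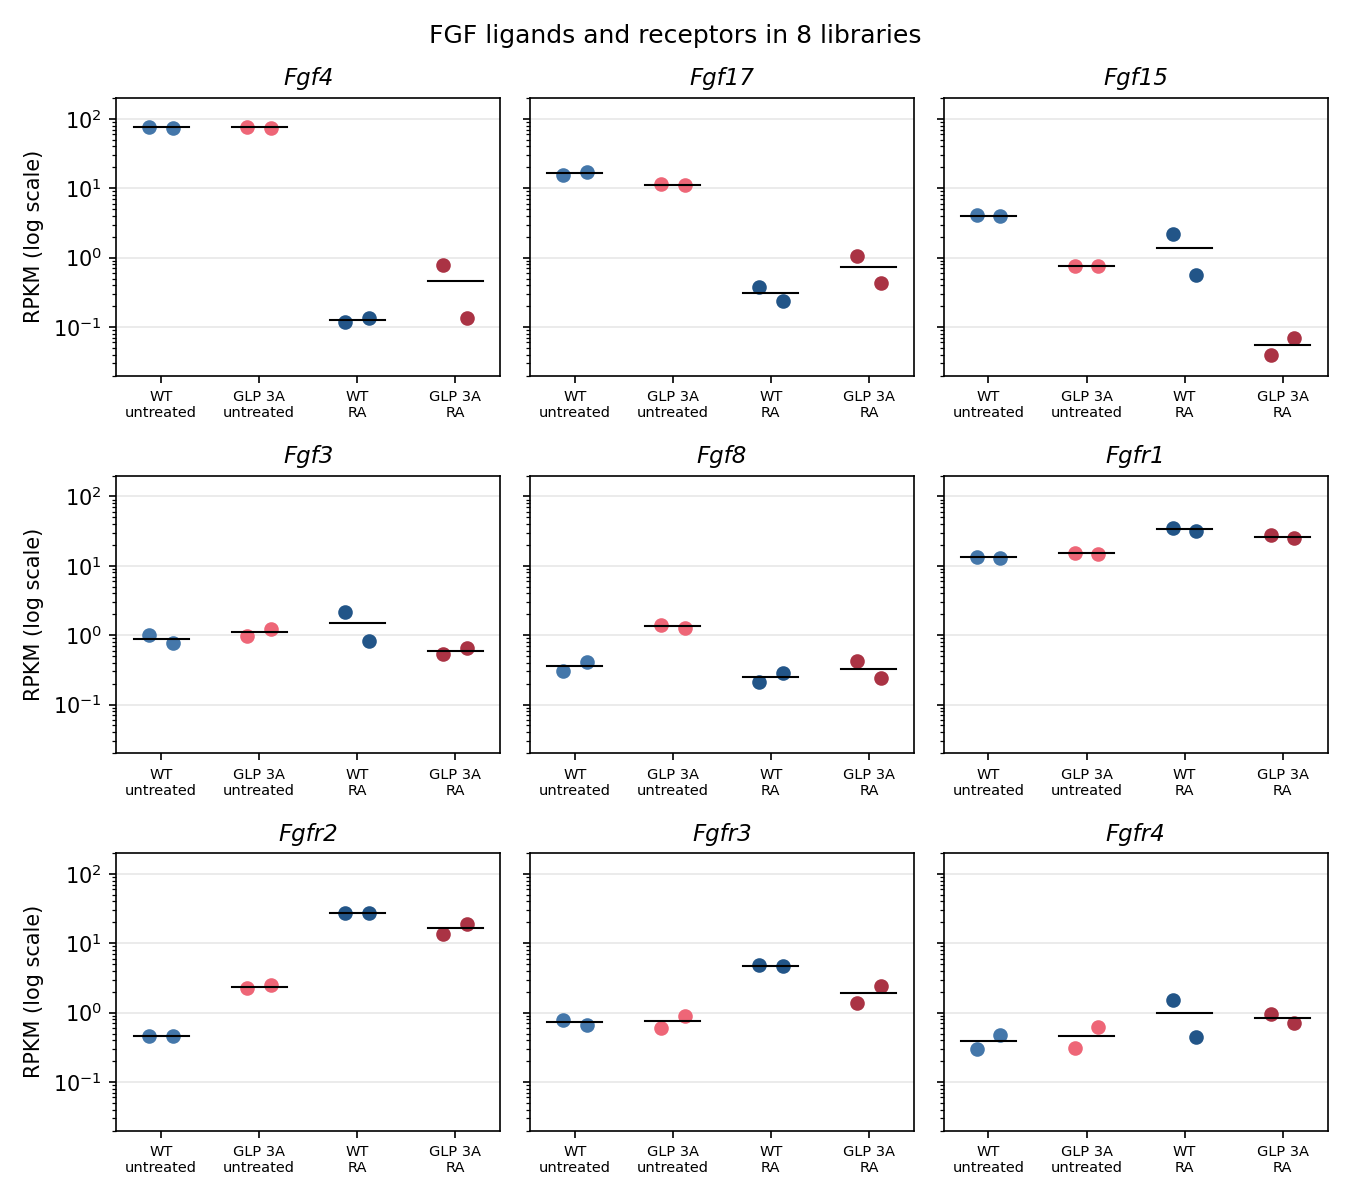
RPKM on a log scale (vertical axis) of the 9 FGF genes in the 4 groups, with 1 point per library and a bar at the group mean (n = 2). Fgf4 drops from above 74 RPKM to below 1 RPKM with RA, while Fgfr2 climbs from 0.455 and 0.459 RPKM to 27.2 RPKM in both wild-type libraries.

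RA changed most of these genes in both genotypes. In wild type 6 of 8 tested members passed the test, with 3 higher (Fgfr1, Fgfr2, Fgfr3) and 3 lower (Fgf4, Fgf15, Fgf17). In GLP 3A 6 of 8 also passed, the same 3 receptors higher and Fgf4, Fgf8 and Fgf17 lower. The test was limma on log2(RPKM + 1) over 13198 genes, and a gene counted as changed at a Benjamini-Hochberg adjusted p under 0.05. By the same rule 68.5% of all genes tested changed with RA in wild type (33.7% higher and 34.8% lower) and 70.4% in GLP 3A (32.3% higher and 38.1% lower), so the count of members lay near the background. Of the 8, 6 changed by at least 1 on the log2 scale in wild type, that is 2-fold in RPKM + 1, against 25.7% of all genes, and 3 in GLP 3A, against 27.0%. The members were chosen with earlier results of these data known, so these counts cannot show whether FGF genes respond more strongly than others. The median over all genes was -0.03 in wild type and -0.07 in GLP 3A on the log2 scale, and the members' medians of 0.11 and -0.57 hide changes in both directions.

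Fgf4, the ligand that stem cells make for themselves, measured 77.3 and 74.7 RPKM in untreated wild-type cells and 0.12 and 0.134 with RA. In GLP 3A it was 76.8 and 74.6 untreated and 0.777 and 0.136 with RA. All 4 untreated libraries were far above all 4 RA libraries, and the ratio of mean RPKM was 599 in wild type and 166 in GLP 3A. On the log2(RPKM + 1) scale, which understates the change of a gene that ends near 0, Fgf4 fell by 6.09 ± 0.19 (moderated SE) in wild type (adjusted p = 5.17e-06) and fell by 5.75 ± 0.19 in GLP 3A (adjusted p = 7.13e-06). Both ratios rest on RA values near 0, and in GLP 3A mainly on replicate 1. That library also held more of the stem cell factor Pou5f1, 27.7 RPKM against 10.7 in replicate 2, and its part in the result was not tested.

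Fgf17, a ligand of the same subfamily as Fgf8, measured 15.5 and 17.3 RPKM in untreated wild-type cells and 0.375 and 0.238 with RA. In GLP 3A it measured 11.4 and 11.2 untreated and 1.05 and 0.435 with RA. The RA libraries of both genotypes were thus well below every untreated library. Fgf17 fell by 3.73 ± 0.17 in wild type (adjusted p = 1.46e-05) and fell by 2.84 ± 0.17 in GLP 3A (adjusted p = 3.67e-05), or 53.5-fold and 15.2-fold by mean RPKM.

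Fgf15, the mouse counterpart of human FGF19, measured 4.12 and 3.93 RPKM in untreated wild-type cells and 2.20 and 0.571 with RA. In GLP 3A it measured 0.766 and 0.752 untreated and 0.0401 and 0.0694 with RA. In both genotypes the RA libraries lay below the untreated ones. The fall passed the test in wild type (log2 difference -1.17 ± 0.30, adjusted p = 0.0137) and did not in GLP 3A (-0.74 ± 0.30, adjusted p = 0.0678), where little was left to lose on this scale: by mean RPKM the ratio was 2.91 in wild type and 13.9 in GLP 3A. With a pseudocount of 0.1 in place of 1 the GLP 3A difference was -2.48 (adjusted p = 0.00636). The wild-type call was lost without either untreated wild-type library (adjusted p = 0.0638 and 0.0558), and the difference was -1.68 without RA replicate 1 and -0.65 without RA replicate 2.

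Fgf3, which lies next to Fgf4, measured 1.00 and 0.775 RPKM in untreated wild-type cells, 2.17 and 0.812 with RA, 0.969 and 1.24 in untreated GLP 3A and 0.531 and 0.649 in GLP 3A with RA. The wild-type groups overlapped and the GLP 3A groups did not. Neither difference passed the test, at 0.35 ± 0.26 (adjusted p = 0.27) in wild type and -0.40 ± 0.26 (adjusted p = 0.205) in GLP 3A. The wild-type value was 0.75 with an adjusted p of 0.00971 without RA replicate 2. RA replicate 1 of wild type was the higher of its pair for Fgf3, for Fgf15 and for the receptor Fgfr4. It also had the larger sum of primitive endoderm markers, 398 against 107 RPKM, and the part of that difference in these values was not tested.

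Fgf8, a ligand of gastrulation and of early brain patterning, was low throughout, at 0.304 and 0.406 RPKM in untreated wild-type cells and 0.211 and 0.285 with RA. It measured 1.42 and 1.29 RPKM in untreated GLP 3A and 0.421 and 0.240 with RA. The untreated GLP 3A libraries were above all 6 others. Only they reached 1 RPKM, so the tests of Fgf8 are not independent of the filter that let it in. In GLP 3A Fgf8 fell by 0.83 ± 0.12 with RA (adjusted p = 0.00104), and in wild type its difference of -0.12 ± 0.12 did not pass (adjusted p = 0.41).

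Fgfr2, a receptor typical of epithelia and neural progenitors, measured 0.459 and 0.455 RPKM in untreated wild-type cells and 27.2 in both RA libraries. In GLP 3A it measured 2.28 and 2.47 untreated and 13.8 and 19.1 with RA. The groups did not overlap, and Fgfr2 rose by 4.27 ± 0.15 in wild type (adjusted p = 5.90e-06) and by 2.35 ± 0.15 in GLP 3A (adjusted p = 3.82e-05), or 59.5-fold and 6.93-fold by mean RPKM.

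Fgfr1, the main receptor of undifferentiated stem cells, measured 13.5 and 12.9 RPKM in untreated wild-type cells and 35.3 and 32.0 with RA. In GLP 3A it measured 15.5 and 14.8 untreated and 27.7 and 25.0 with RA. It rose by 1.29 ± 0.08 in wild type (adjusted p = 4.26e-05) and by 0.76 ± 0.08 in GLP 3A (adjusted p = 3.05e-04), the smallest spread of the receptors.

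Fgfr3, known for restraining growth of cartilage, measured 0.783 and 0.664 RPKM in untreated wild-type cells and 4.80 and 4.69 with RA. In GLP 3A it measured 0.599 and 0.901 untreated and 1.39 and 2.44 with RA. Again no RA library fell among the untreated ones. The rise was 1.74 ± 0.19 in wild type (adjusted p = 3.15e-04) and 0.72 ± 0.19 in GLP 3A (adjusted p = 0.0131). The GLP 3A call was lost without untreated replicate 1 (adjusted p = 0.0768), with quantile normalization (0.31, adjusted p = 0.171) and with the 4 GLP 3A libraries fitted alone (adjusted p = 0.0554), and the value was 0.46 without RA replicate 2.

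Fgfr4 measured 0.302 and 0.482 RPKM in untreated wild-type cells, 0.311 and 0.622 in untreated GLP 3A, 1.54 and 0.447 in wild type with RA and 0.945 and 0.705 in GLP 3A with RA. It was tested only when no filter was set, and then differed by 0.46 ± 0.27 with RA in wild type (adjusted p = 0.218) and by 0.32 ± 0.27 in GLP 3A (adjusted p = 0.377).

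**Figure D2:**
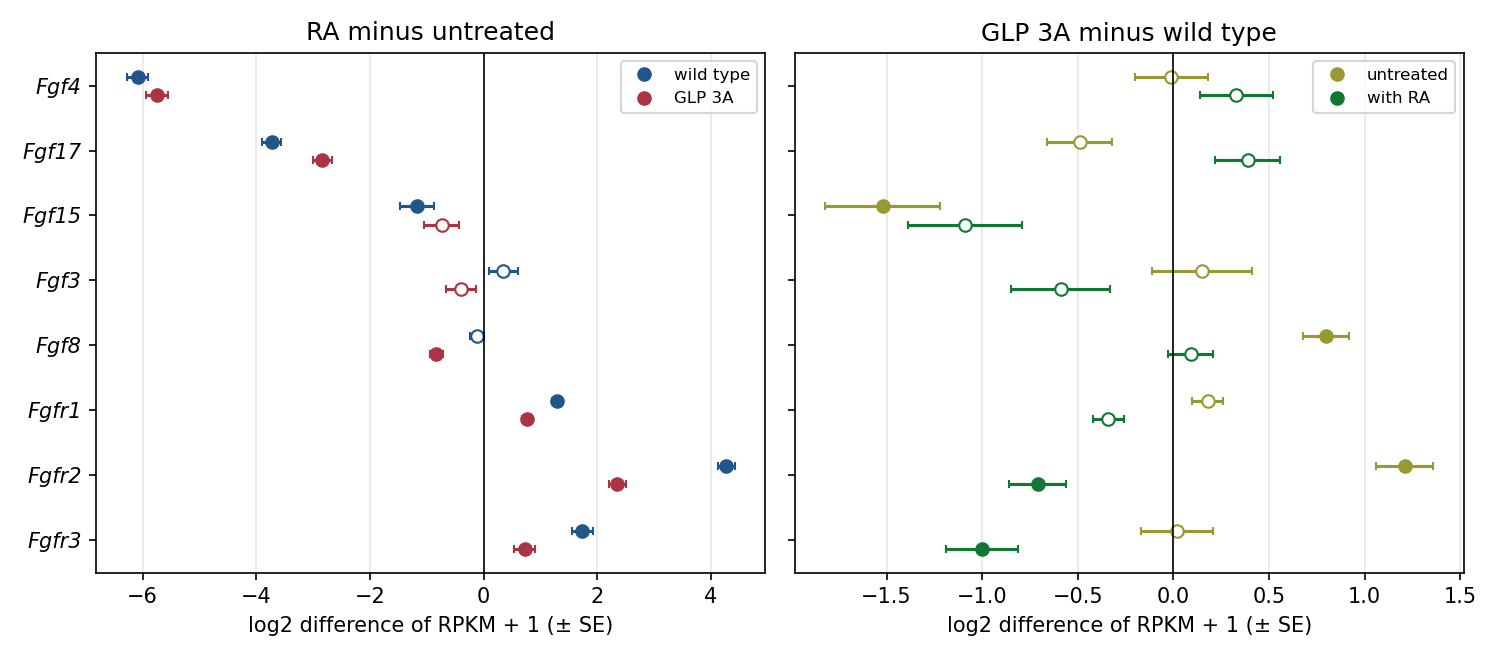
Log2 differences of RPKM + 1 (horizontal axis, ± moderated SE) of the 8 tested FGF genes, RA minus untreated on the left and GLP 3A minus wild type on the right. Filled points passed the test (adjusted p under 0.05) and open points did not; Fgfr2 lies at 1.21 untreated and at -0.71 with RA in the genotype panel.

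Between genotypes, 3 of 8 tested members differed in untreated cells. Fgfr2 and Fgf8 were higher and Fgf15 lower in GLP 3A, against 11.7% of all genes that differed either way (7.52% higher and 4.15% lower; 993 and 548 genes, or 784 and 665 after scaling by median-of-ratios factors and 546 and 465 after quantile normalization). Fgfr2 was 5.19-fold higher by mean RPKM (log2 difference 1.21 ± 0.15, adjusted p = 0.00639), Fgf8 3.81-fold higher (0.80 ± 0.12, adjusted p = 0.0122) and Fgf15 5.31-fold lower (-1.52 ± 0.30, adjusted p = 0.029). Each of the 3 had its GLP 3A libraries wholly on one side of the wild-type ones. Fgf8 passed the filter only through the untreated GLP 3A libraries and Fgf15 only through wild-type libraries. The place of either gene in the count of 3 is thus not independent of the filter. With no filter the log2 difference of Fgf8 was 0.80 ± 0.09 (adjusted p = 0.00849) and that of Fgf15 -1.52 ± 0.31 (adjusted p = 0.0462). The median over the 8 members was 0.09 and over all genes 0.04. Fgf17 (-0.49 ± 0.17, adjusted p = 0.125) and Fgfr1 (0.18 ± 0.08, adjusted p = 0.208) also had groups that did not overlap, without passing the test; Fgf17 also passed without GLP 3A RA replicate 1 (adjusted p = 0.026) or 2 (0.025), which made the count 4, and with only the 4 untreated libraries fitted (adjusted p = 0.0187). Fgf4 differed by -0.01, with a 95% interval of -0.48 to 0.46, Fgf3 by 0.15 (-0.47 to 0.78) and Fgfr3 by 0.02 (-0.43 to 0.47). The differences of Fgf4 and Fgfr3 changed sign when 1 library was left out, and that of Fgfr3 also with median-of-ratios or quantile scaling.

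All 3 genotype calls in untreated cells were lost when any of the 4 untreated libraries was left out, where the adjusted p was 0.0536 to 0.0648 for Fgfr2, 0.0865 to 0.1 for Fgf8 and 0.146 to 0.159 for Fgf15. Their log2 differences then stayed within 1.17 to 1.25, 0.74 to 0.85 and -1.54 to -1.49. Beside these genes, the markers of several cell types were compared between the same libraries. Of 5 tested neural markers, Nes (0.96 ± 0.15, adjusted p = 0.0145; called in 4 of 8 fits that leave out 1 library) and Tubb3 (0.79 ± 0.07, adjusted p = 0.00327; called in all 8) were higher in untreated GLP 3A, whereas Sox1 (-0.74 ± 0.39, adjusted p = 0.28) and Neurod1 (-0.33 ± 0.14, adjusted p = 0.193) had GLP 3A libraries wholly below wild type without passing. The neural sum of 30.6 and 29.4 RPKM in wild type and 51.0 and 47.3 in GLP 3A was mostly Tubb3. Of 7 pluripotency markers, 1 was lower in GLP 3A, Zfp42 (-2.20 ± 0.29, adjusted p = 0.00893; called in 4 of 8), and the sum was 2913 and 2915 against 2600 and 2494. Of the 7 pluripotency markers, 5 had GLP 3A libraries wholly below wild type and 2 wholly above. The 2 were Nanog (0.37 ± 0.31, adjusted p = 0.497) and Tdgf1 (0.44 ± 0.32, adjusted p = 0.442), neither of which passed. None of 6 fibroblast and 8 primitive endoderm markers tested passed, and 1 of 3 mesoderm markers was higher. The part of such markers in the FGF differences was not tested.

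With RA, 2 of 8 tested members differed between genotypes, both of them receptors and both lower in GLP 3A, against 10.6% of all genes either way and 5.31% lower. Fgfr3 was lower at -1.0 ± 0.19 (adjusted p = 0.0292), 2.47-fold by mean RPKM, and Fgfr2 at -0.71 ± 0.15 (adjusted p = 0.035), 1.65-fold. Fgfr1 had the same direction without passing, at -0.34 ± 0.08 (adjusted p = 0.0516), and passed with median-of-ratios scaling (-0.37, adjusted p = 0.0456) and with the replicate number as a block (-0.34, adjusted p = 0.033), which made the count 3. For all 3 receptors both GLP 3A libraries were below both wild-type ones. Among the ligands, Fgf15 was again below wild type in both libraries, 25.3-fold by mean RPKM, with a log2 difference of -1.09 ± 0.30 that did not pass (adjusted p = 0.0735) but did with a pseudocount of 0.1 (-3.01, adjusted p = 0.0286). The ratio and the value with that pseudocount rest on GLP 3A values near 0 (0.0401 and 0.0694 RPKM). The wild-type libraries lay apart, at 2.20 and 0.571 RPKM. Without wild-type RA replicate 1 the log2 difference of Fgf15 was -0.57, and without replicate 2 it was -1.6. Fgf3 (-0.59 ± 0.26, adjusted p = 0.187), Fgf4 (0.33 ± 0.19, adjusted p = 0.303), Fgf8 (0.09 ± 0.12, adjusted p = 0.658) and Fgf17 (0.39 ± 0.17, adjusted p = 0.193) did not pass. The median over the members was -0.47 and over all genes -0.01.

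The calls of Fgfr2 and Fgfr3 with RA depended on the libraries fitted. Both were lost without any 1 of the 4 untreated libraries (adjusted p = 0.0639 to 0.0842), without wild-type RA replicate 1 (0.115 and 0.0996) or 2 (0.116 and 0.0981), and with the 4 RA libraries fitted alone (0.22 and 0.2), and that of Fgfr2 also with no filter (0.0557). Without GLP 3A RA replicate 2, 4 members passed: Fgfr2, Fgfr3, and, higher in GLP 3A, Fgf4 (adjusted p = 0.00744) and Fgf17 (0.0209). Without wild-type RA replicate 2, Fgf15 (adjusted p = 0.00971) and Fgf3 (0.0485) passed instead of the receptors. Beside the receptors, the cell type markers differed in both directions with RA. Of 8 primitive endoderm markers 2 were lower in GLP 3A, Pdgfra (-1.40 ± 0.14, adjusted p = 0.00644) and Sox17 (-1.27 ± 0.27, adjusted p = 0.0373), while the list's sums overlapped, at 398 and 107 RPKM in wild type and 143.6 and 70.2 in GLP 3A. Of 6 fibroblast markers tested, Pdgfra again was lower and Col1a1 was higher (0.53 ± 0.11, adjusted p = 0.0358). Of 5 neural markers Sox1 was lower (-1.82 ± 0.39, adjusted p = 0.0389), and 2 were with the replicate block. Of the 5, 2 had GLP 3A libraries wholly below wild type and 1 wholly above. The latter was Tubb3, at 14.9 and 13.7 RPKM in GLP 3A against 11.2 and 11.6 in wild type, which did not pass. Of 7 pluripotency markers Nanog (2.25 ± 0.31, adjusted p = 0.0146) and Tdgf1 (1.80 ± 0.32, adjusted p = 0.0261) were higher, whereas Sox2 lay wholly below wild type without passing (-0.61 ± 0.23, adjusted p = 0.14). Overlapping symbols make the values of Sox1, Nanog and Sox2 uncertain. None of the 3 mesoderm markers tested passed. In the 8 fits that leave out 1 library Pdgfra was called in 8, Nanog in 7, Sox1, Col1a1 and Tdgf1 in 2 and Sox17 in 1. The part of such markers in the receptor differences was not tested.

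The response to RA itself differed between genotypes for 1 of 8 tested members, Fgfr2, against 1.80% of all genes (0.561% higher and 1.24% lower). Its rise was smaller in GLP 3A by -1.92 ± 0.21 on the log2 scale, with a 95% interval of -2.42 to -1.42 (adjusted p = 0.0204). Untreated GLP 3A cells had more Fgfr2 than wild type and RA-treated ones less, so both ends of the response contributed to the difference. The call held without either GLP 3A RA library and was lost without any of the other 6 libraries (adjusted p = 0.0627 to 0.143). Fgfr1 (-0.52 ± 0.12, adjusted p = 0.0808), Fgfr3 (-1.02 ± 0.26, adjusted p = 0.104) and Fgf8 (-0.71 ± 0.17, adjusted p = 0.0893) had the same sign, and Fgf17 the opposite one (0.89 ± 0.25, adjusted p = 0.119), none of them past the test. Fgf3 (-0.75 ± 0.36, adjusted p = 0.303), Fgf4 (0.34 ± 0.27, adjusted p = 0.527) and Fgf15 (0.43 ± 0.43, adjusted p = 0.618) were further from it. Without GLP 3A RA replicate 2, Fgfr3 (adjusted p = 0.0221), Fgf4 (0.0227) and Fgf17 (0.019) passed beside Fgfr2.

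Summed over the members, the 4 receptors made up 15.0 and 14.5 RPKM in untreated wild-type cells and 18.7 in both untreated GLP 3A libraries. With RA they reached 68.8 and 64.3 in wild type and 43.8 and 47.3 in GLP 3A. The 5 ligands went the other way, from 98.2 and 97.2 in untreated wild-type cells and 91.3 and 89.1 in untreated GLP 3A to 5.07 and 2.04 in wild type and 2.82 and 1.53 in GLP 3A with RA. This sum leaves out 17 further FGF genes, the intracellular Fgf13 among them. Those summed to 6.38 to 7.67 RPKM in the untreated libraries and 15.5 to 21.9 with RA, more than the 5 ligands with RA. The make-up of the receptor sum shifted as well. Fgfr1 supplied 89.7% and 89.0% of it in untreated wild-type cells and 51.3% and 49.7% with RA. Fgfr2 supplied 3.05% and 3.14% in untreated wild-type cells, 12.2% and 13.2% in untreated GLP 3A, 39.5% and 42.3% in wild type with RA and 31.4% and 40.4% in GLP 3A with RA. Thus untreated GLP 3A cells carried a larger share of Fgfr2 than untreated wild type in every library. Of the ligand sum, Fgf4 supplied 76.9% to 84.1% in the untreated libraries and 2.36% to 27.5% with RA.

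**Figure D3:**
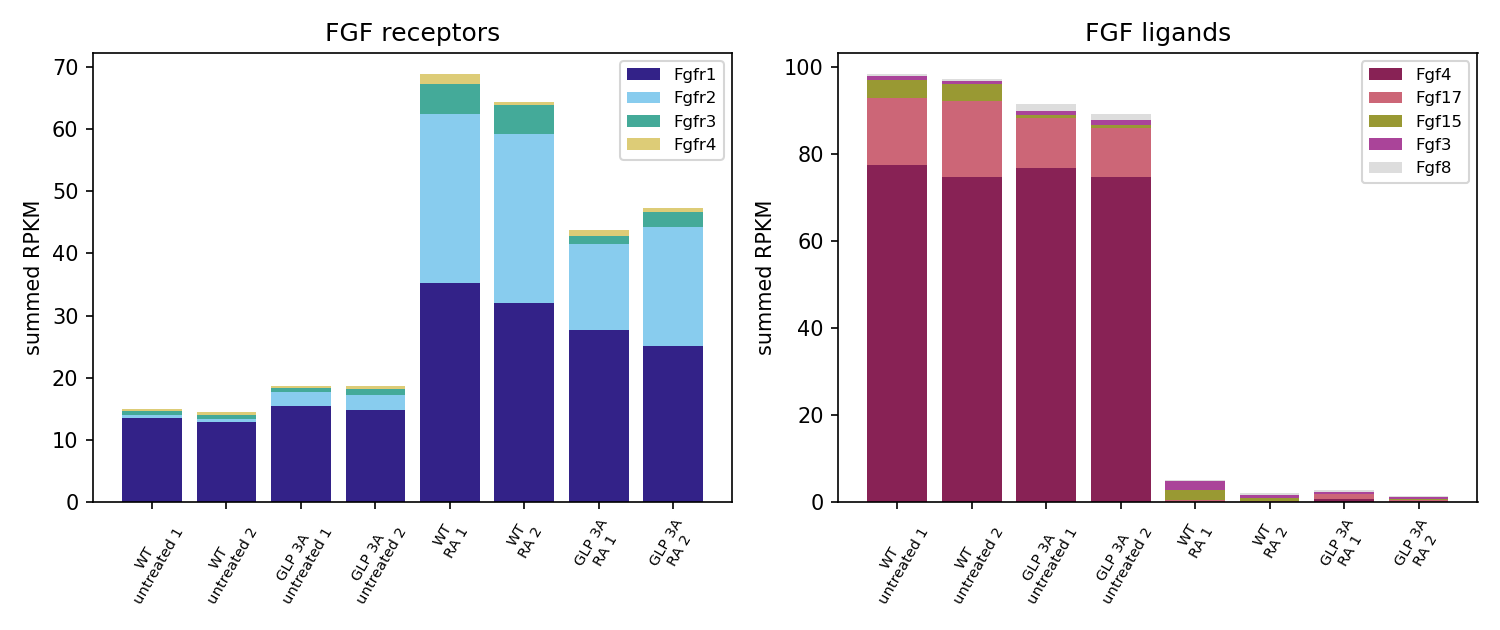
Summed RPKM (vertical axis) of the 4 receptors on the left and the 5 ligands on the right in each of the 8 libraries, stacked by gene. The receptor bars grow from 14.5 to 18.7 RPKM untreated to 43.8 to 68.8 with RA, mainly through Fgfr1 and Fgfr2, while the ligand bars shrink from 89.1 to 98.2 RPKM to 1.53 to 5.07.

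Fgf3, Fgf4 and Fgf15 share 1 stretch of chromosome 7. In build mm9 they lie at chr7:152024516-152029253, chr7:152047290-152051148 and chr7:152082436-152086856, a span of 62.3 kb with gaps of 18.0 and 31.3 kb. The other members lie apart: Fgf17 at chr14:71036011-71042075, Fgf8 at chr19:45811287-45817374, Fgfr1 at chr8:26629243-26686186, Fgfr2 at chr7:137305964-137410322, Fgfr3 at chr5:34064372-34079717 and Fgfr4 at chr13:55254178-55270120. No member's locus overlaps another symbol of the tables. Despite their closeness the 3 clustered ligands differed in level and in response: Fgf4 was the highest of the 9 genes in untreated cells and lost most of it with RA, whereas Fgf3 did not pass the test. The cell cycle gene Ccnd1, beyond Fgf15, fell with RA by 1.08 ± 0.13 in wild type (adjusted p = 5.57e-04) and by 1.62 ± 0.13 in GLP 3A (adjusted p = 1.01e-04). Of the 6 neighbours tested within 500 kb, 3 rose and 2 fell in each genotype, beside 33.7% of all genes higher and 34.8% lower in wild type and 32.3% and 38.1% in GLP 3A; the wild-type count of 5 was 3 without untreated replicate 2 or RA replicate 1. In untreated cells none of the 6 neighbours passed the test between genotypes, beside 11.7% of all genes, and this count is not read as a result. Of the 6, 3 had GLP 3A libraries wholly above wild type and 1 wholly below. Fgf15 was lower in GLP 3A, a call that was lost when any untreated library was left out. With RA, Ccnd1 was lower in GLP 3A (-0.72 ± 0.13, adjusted p = 0.0289; called in 2 of 8 fits that leave out 1 library).

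**Figure D4:**
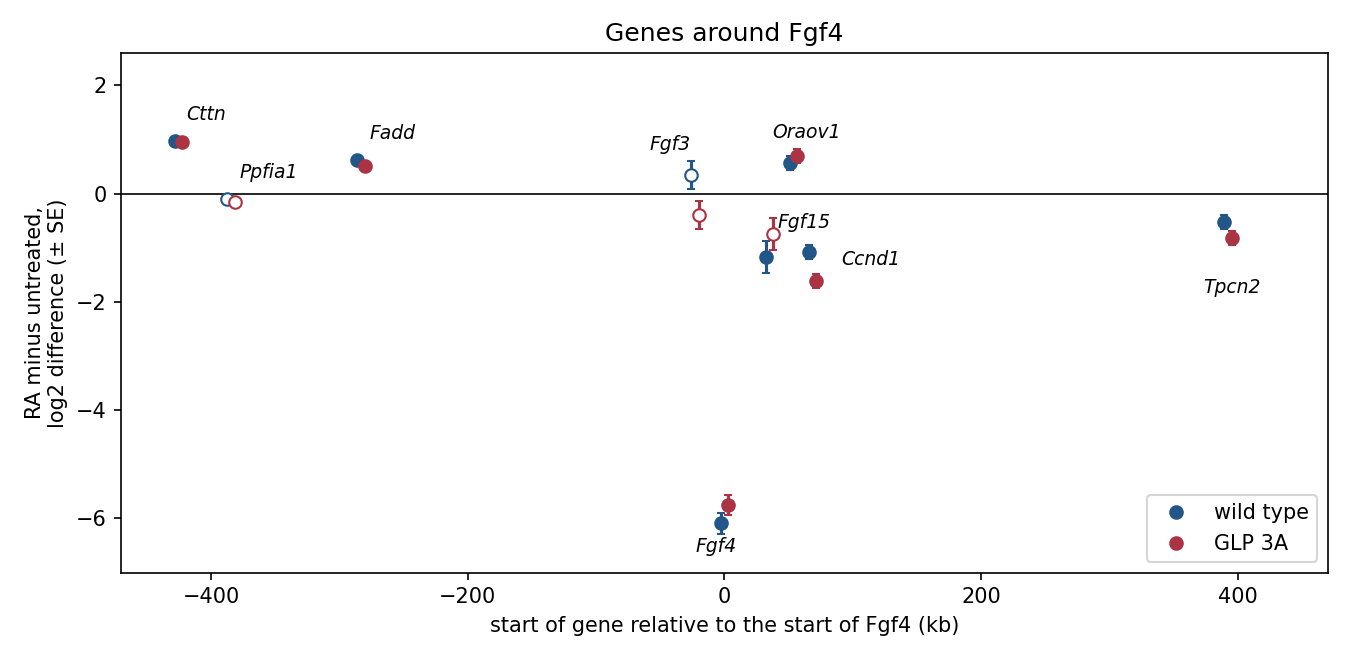
Log2 difference of RPKM + 1, RA minus untreated (vertical axis, ± moderated SE), for Fgf3, Fgf4, Fgf15 and 6 tested neighbours against the distance of their starts from that of Fgf4 in kb (horizontal axis; the genotypes are set slightly apart). Filled points passed the test; Fgf4 lies at -6.09 in wild type and -5.75 in GLP 3A, and the other genes lie between -1.62 and 0.98.

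The other parts of the pathway were described from lists of its genes, whose counts with RA are read against the 68.5% of all genes called in wild type (33.7% higher, 34.8% lower) and the 70.4% called in GLP 3A (32.3% higher, 38.1% lower). Of 17 further FGF genes, 6 were tested. In wild type 3 rose with RA and none fell, and in GLP 3A 4 rose and 1 fell; the GLP 3A count of 5 was 3 and 2 without untreated GLP 3A replicate 1 and 2, and 2 with quantile normalization. Fgf5, the ligand of primed stem cells, measured 0.242 and 0.243 RPKM in untreated wild-type cells and 3.17 and 5.55 with RA, a rise of 2.07 ± 0.34 (adjusted p = 0.00184). In GLP 3A Fgf5 went from 0.611 and 0.365 to 0.742 and 2.29, a difference of 0.69 ± 0.34 that did not pass (adjusted p = 0.109). Fgf13, an intracellular FGF relative, rose by 1.79 ± 0.16 in wild type and 1.58 ± 0.16 in GLP 3A, with a value made uncertain by the microRNA gene within it. Fgf2 was at 0 in all untreated libraries.

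At the cell surface most co-receptor genes rose with RA, as 3 of the receptors did. Of 12 tested co-receptor and binding protein genes, 10 rose with RA in each genotype, while 1 fell in wild type and 2 in GLP 3A, beside 33.7% of all genes higher in wild type and 32.3% in GLP 3A, with median log2 differences of 2.08 and 1.83. Fgfrl1, a receptor-like protein that lacks the kinase, rose by 3.18 ± 0.10 and 2.54 ± 0.10. The glypican gene Gpc6 rose by 3.19 ± 0.21 and 2.45 ± 0.21. The syndecan gene Sdc4 was the 1 that fell in both genotypes (-1.73 ± 0.21 and -2.12 ± 0.21), and Fgfbp1, which carries FGFs away from the matrix, was the other in GLP 3A (-0.95 ± 0.19). All 12 genes for enzymes that build or trim heparan sulfate rose in wild type and 10 of 12 in GLP 3A (medians 0.85 and 0.92). Between genotypes with RA, 2 of these 12 were lower in GLP 3A and 0 higher, beside 5.31% and 5.3% of all genes. In untreated cells 4 of the 12 co-receptor and binding protein genes were higher in GLP 3A, beside 7.52% of all genes. Gpc1 was the 1 that was lower (-0.54 ± 0.11), beside 4.15% of all genes. Like Fgfr2 and Fgfr3, the sulfatase gene Sulf1 was lower in GLP 3A with RA (-0.95 ± 0.16, adjusted p = 0.0218; called in 2 of 8 fits that leave out 1 library), and like Fgfr2 the syndecan gene Sdc2 was higher in untreated GLP 3A (1.60 ± 0.36, adjusted p = 0.0404; called in 4 of 8). Of 22 relay genes between receptor and ERK, 8 rose and 5 fell in wild type and 7 rose and 8 fell in GLP 3A, with medians of -0.04 and -0.11. The called share lay close to the 70.4% of all genes in GLP 3A and somewhat below the 68.5% in wild type. Neither is read as a result about these genes.

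Below ERK, 4 of 12 tested feedback inhibitor genes rose and 2 fell in wild type with RA, and 5 rose and 2 fell in GLP 3A. Both called shares were below the 68.5% and 70.4% of all genes, and single members moved far in either direction. In untreated cells 2 of the 12, Spry4 and Spred1 (-0.52 ± 0.10), were lower in GLP 3A and 0 higher, beside 4.15% and 7.52% of all genes. Of the 12, 6 had GLP 3A libraries wholly below wild type and 3 wholly above. Spry4 measured 29.8 and 25.8 RPKM in untreated wild-type cells, 11 and 10.4 in untreated GLP 3A, 0.387 and 0.499 in wild type with RA and 0.408 and 0.201 in GLP 3A with RA. It was thus lower in untreated GLP 3A (-1.29 ± 0.12, adjusted p = 0.00293, called in all 8 fits that leave out 1 library) and near 0 in both genotypes with RA. The difference in its response passed as well (1.14 ± 0.17, adjusted p = 0.0376; called in 2 of 8). Spry2 fell by 2.75 ± 0.21 and 2.72 ± 0.21, whereas the ERK phosphatase genes Dusp5 (3.12 ± 0.19 and 3.02 ± 0.19) and Dusp6 (1.24 ± 0.13 and 1.29 ± 0.13) rose. Relatives of these genes behaved differently: Spry1 rose in GLP 3A (0.69 ± 0.25, adjusted p = 0.0456; called in 3 of 8), and Dusp4 differed by 0.41 ± 0.13 in wild type (adjusted p = 0.0303; called in 6 of 8) and by -0.24 ± 0.13 in GLP 3A (adjusted p = 0.147). Of 9 tested transcription factor genes that ERK induces, 1 rose and 3 fell in each genotype, again a smaller called share than over all genes. Etv5 fell from 158 and 150 RPKM to 4.60 and 4.35 in wild type and from 171 and 158 to 6.01 and 4.36 in GLP 3A, and Etv4 fell by 4.56 ± 0.18 and 3.45 ± 0.18. Hence Etv5, Etv4, Spry2 and Spry4 had the direction of Fgf4 and Fgf17, and Dusp5 and Dusp6 that of the receptors. Among the 9 transcription factor genes in untreated cells, 1 was higher in GLP 3A and 0 lower, beside 7.52% and 4.15% of all genes. This was Ier3 (0.80 ± 0.13, adjusted p = 0.0134), at 0.72 to 0.89 when 1 library was left out. Of the 9, 3 had GLP 3A libraries wholly above wild type and 2 wholly below.

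**Figure D5:**
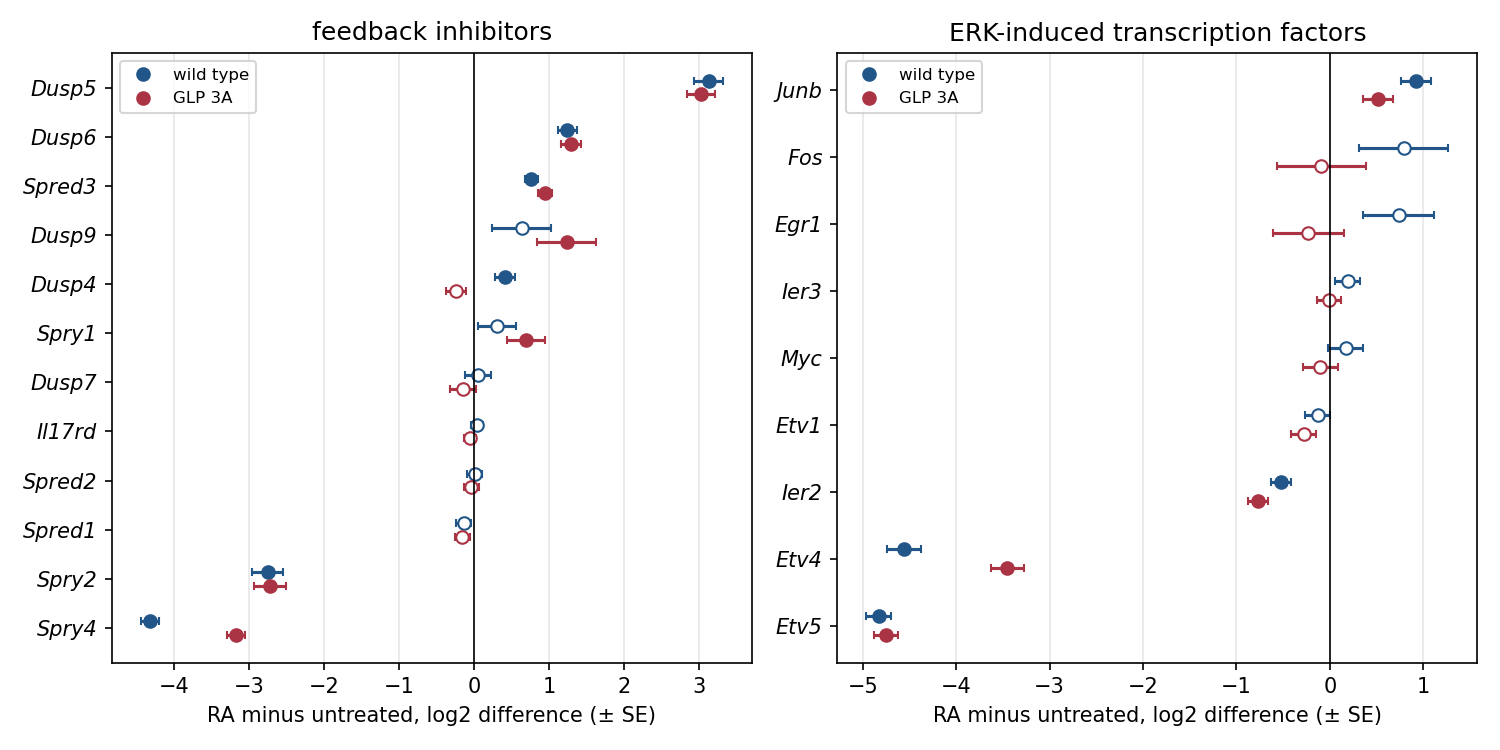
Log2 differences of RPKM + 1, RA minus untreated (horizontal axis, ± moderated SE), of the tested feedback inhibitor genes on the left and ERK-induced transcription factor genes on the right in both genotypes. Filled points passed the test; Spry4, Spry2, Etv4 and Etv5 lie between -4.83 and -2.72, and Dusp5 lies above 3 in both genotypes.

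The genes most like each member were sought by the root mean square distance between log2(RPKM + 1) profiles, centred over the 8 libraries, among 11875 tested genes. For Fgf4 they were Nr0b1 (0.262) and Esrrb (0.411), both genes of stem cell transcription factors, and Olig2 (0.312), known from oligodendrocyte precursors, all above 39 RPKM untreated and below 5 RPKM with RA. For Fgf17 they were Calb2 (0.164), Fzd5 (0.196) and Ly6g6e (0.198). Fgf15 was closest to Pnpla3 (0.253), which measured 4.11 and 4.21 RPKM in untreated wild-type cells and 0.709 and 0.828 in untreated GLP 3A. Fgfr1 had the closest match of the members, Pard6b (0.0412), at 14.2 and 13.7 RPKM in untreated wild-type cells and 36.9 and 33.8 with RA. Fgfr2 was closest to Vim (0.249), Peg3 (0.253) and Pax6 (0.283). Pax6 measured 0.0265 and 0.117 RPKM in untreated wild type and 0.531 and 0.602 in untreated GLP 3A, and 17.4 and 20.5 against 7.26 and 13.6 with RA. Its genotype differences, unlike those of Fgfr2, did not pass the test in untreated cells (0.55 ± 0.26, adjusted p = 0.225) or with RA (-0.85 ± 0.26, adjusted p = 0.0877), and the overlapping symbol Pax6os1 makes its value uncertain. Fgfr3 was closest to Asb4 (0.133), Rgl1 (0.142) and Sfrp2 (0.149), Fgf8 to Nrsn1 (0.105) and Fgf3 to Tmem144 (0.147). These distances are over 8 libraries in 4 groups and describe likeness only.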

How the data were processed

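RNA-seq of 8 libraries was used, and the other 32 of the series' 40 samples, of chromatin and input DNA, were not analysed here. The deposited tables give RPKM for each gene symbol with its locus, per the file headers. Build mm9 and the tools TopHat, Cufflinks, SAMtools and Bowtie 0.12.7 are named in the submitters' processing notes, and per the labels' protocols libraries were single-end from Trizol RNA treated with DNase. Use of strand and the assignment of reads in overlapping genes are not given in these sources. The members and lists were chosen with earlier results of these data known.

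Groups were compared with limma 3.58.1 (R 4.3.3) on log2(RPKM + 1), with 4 group means over all 8 libraries, an intensity trend and two-sided moderated tests. Genes at 1 RPKM or more in 2 or more libraries were tested, 13198 in all, and their p-values adjusted by Benjamini-Hochberg. The 5 comparisons share libraries and are not independent, and the difference of responses is their interaction term. The fit was tested on simulated data. RPKM summed to 748556 to 822877 in the untreated and 509341 to 554854 in the RA libraries, and median-of-ratios factors were 0.985 to 1.033. Depth was matched on values up to 0.03 RPKM within 1.5%, where 7.0% to 13.9% of the genes used agreed, so it is a rough estimate. No 2 libraries held the same values. All 9 members were named. From each pathway list up to 4 called genes with the largest change per comparison and up to 2 uncalled ones with the highest mean were eligible, and the 3 genes most like each member. Fgf2, Sdc4, Fgfbp1, Spry1, Dusp4 and the cell type markers were named after their values were seen. Other settings tried were a pseudocount of 0.1, no filter, quantile and median-of-ratios scaling, a prior without the intensity trend, the replicate number as a block, only the 4 libraries compared, and each library left out in turn.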

Additional observations from a re-analysis of the deposited data

Results flagged for a closer look

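The response of Fgfr2 to RA differed between genotypes by a test of the difference itself, the interaction term of the limma fit. The difference was -1.92 ± 0.21 on the log2(RPKM + 1) scale (adjusted p = 0.0204), GLP 3A minus wild type. The rise was 4.27 ± 0.15 in wild type and 2.35 ± 0.15 in GLP 3A, and the libraries of each genotype moved the same way. When 1 library was left out the difference was -2.14 to -1.7. The call was lost without any untreated library and without either wild-type RA library.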

How the results depend on the processing

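Over the 8 tested members and 5 comparisons, 519 of 592 alternative values kept their direction and their side of the threshold, 23 passed it, 38 fell short of it and 12 changed sign. The counts of called members with RA, 6 in each genotype, stayed within 1.5 times under every setting run. The count of 3 in untreated cells ranged from 0 to 4 when 1 library was left out. The count of 2 with RA was 1 with no filter, 0 with only the 4 libraries compared and 0 to 4 when 1 library was left out. The count of 1 for the difference of responses was 0 to 4 when 1 library was left out. A library left alone in its group was assumed to vary like the other groups. None of the values that changed sign passed the test. Fgf4 between genotypes in untreated cells was 0.02 without wild-type replicate 1 and 0.01 without GLP 3A replicate 2; Fgfr3 there was -0.003 after median-of-ratios scaling, -0.02 after quantile normalization and -0.11 to 0.14 when 1 library was left out (-0.03 without wild-type replicate 2). Between genotypes with RA, Fgf8 was -0.04 with quantile normalization and -0.01 to 0.19 when 1 library was left out. With RA in wild type, Fgf3 was -0.02 with quantile normalization and -0.06 to 0.75 when 1 library was left out. The difference of responses of Fgf15 was -0.75 with a pseudocount of 0.1 and -0.09 to 0.94 when 1 library was left out. The causes were not tested.

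Over all genes, 1541 were called between genotypes in untreated cells (993 higher, 548 lower), 784 and 665 after scaling by median-of-ratios factors, 546 and 465 after quantile normalization, 3450 in all with only the 4 libraries compared and 206 to 2298 when 1 library was left out. With RA 1401 were called, 15 with only the 4 libraries compared and 298 to 2431 when 1 was left out. The difference of responses gave 238, 158 with a pseudocount of 0.1, 130 with quantile normalization and 11 to 1128 when 1 was left out. With the replicate number as a block, 3, 3, 6, 6 and 1 members were called in the comparisons in untreated cells, with RA, RA in wild type, RA in GLP 3A and of responses; the 1 call gained was Fgfr1 with RA (adjusted p = 0.033). The labels do not say what the number stands for, the difference between replicates correlated at r = 0.169 to 0.355 between groups over 13198 genes, and replicate 1 was the deeper library in each group. With no filter more genes were tested, and the further FGF genes called with RA were 7 in wild type and 8 in GLP 3A (3 and 5 before) and the chromosome 7 neighbours 8 in each (5 before). Depth limits the low values most, Fgf4 and Fgf15 with RA among them.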
